A study of Tachysurus fulvidraco x Tachysurus vachelli with 6 samples.

Results

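The proteasome genes of the liver were described in juvenile yellow catfish of a hybrid cross, with a Tachysurus fulvidraco mother and a Pseudobagrus vachellii father, that had eaten a diet with 4 g/kg A. senticosus powder (T_liver) or the same diet with 0 g/kg (C_liver) for 56 days. Members are the genes whose name starts with psma, psmb, psmc, psmd, psme, psmf or psmg, or whose deposited annotation holds the KEGG pathway Proteasome, without 1 entry described as interferon. The rule found 74 of 28288 genes, 41 by name and 33 through the pathway alone, on 52 scaffolds. Each group has 3 libraries of poly(A) RNA from whole liver of fish that were starved before sampling. RNA was mixed within each group before the libraries were prepared, and the number of fish behind a library is not stated. Therefore n counts libraries, and all P values measure the spread between these libraries, which may be technical. A. senticosus is Siberian ginseng, and diet is the 1 factor that the labels give between the groups.

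The proteasome is the barrel-shaped protease that degrades proteins tagged with ubiquitin. Its core particle is built of outer rings of alpha subunits (psma genes), which gate the entrance, and inner rings of beta subunits (psmb genes), some of which carry the cutting sites. A cap of ATPases (psmc genes) and non-ATPase subunits (psmd genes) binds tagged proteins, removes the tag, unfolds the chain and threads it into the core. In mammals, interferon induces alternative beta subunits that replace the standard catalytic ones and shift the cuts towards peptides for class I molecules of the immune system, and activators (psme genes) can bind the core in place of the cap. In liver, the proteasome is a main route for removing misfolded and regulatory proteins.

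Of the 74 members, 58 are proteasome subunits or assembly factors by gene name, description or KEGG orthology entry. They stand for 47 subunit names, since some subunits have more than 1 entry. The other 16 are named or described as other proteins, such as signalosome subunits and mitochondrial proteases. A gene was tested if its FPKM (fragments per kilobase of transcript, scaled to library size) averaged 1 or more in the 6 libraries, which holds for 68 members, 55 of them subunits or factors. The 6 members not tested were LOC113651944, a short psma1-like entry inside psma1, LOC113651508 (psmb11-like), LOC113634465 (an entry like the inhibitor psmf1), psmc3ip, LOC113639617 and ttc39a, of which ttc39a had no count in any library. Each of these 6 had a mean level under 1 FPKM.

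Counts on genes summed to between 44153673 and 51459627 per library. Hepatocyte markers summed to 35350, 28370 and 26980 FPKM in T_liver replicates 1, 2 and 3. In C_liver replicates 1, 2 and 3 they summed to 27410, 27670 and 24940 FPKM. T_liver replicate 1 had the highest level of 5 of the 9 hepatocyte markers and C_liver replicate 3 that of the other 4. With the scaling used in the tests, C_liver replicate 3 was the highest library in 25.2% of all tested genes and the lowest in 26.8%. T_liver replicate 1 came next, at 17.6% and 19.2%. With total counts as the only scaling, C_liver replicate 3 was highest in 14.1%. It also had the highest sum of red blood cell entries, and T_liver replicate 2 had the next. The 13 red blood cell entries summed to 1760, 4284 and 869.9 FPKM in T_liver replicates 1, 2 and 3 and to 1513, 1533 and 6271 FPKM in C_liver replicates 1, 2 and 3. C_liver replicate 3 had the highest level of 8 of the 11 tested red blood cell entries, and LOC113644596, a hemoglobin beta entry, was at 0 in all libraries. The 3 exocrine pancreas markers summed to 113.5, 22.9 and 112.2 FPKM in T_liver and to 5.06, 5.34 and 104.7 FPKM in C_liver. Of these markers, cel and cela1 were higher in T_liver, at log2 fold changes of 2.75 and 2.40, and clps was at -0.14. Both cel and cela1 met the criteria for a DE gene given below (edgeR quasi-likelihood adjusted P = 0.676 for each). Of 5 tested myeloid cell markers, 2 were higher and 3 lower in T_liver, and csf1r, at -1.09, met these criteria too. C_liver replicate 3 was the highest library in 3 of 4 tested stellate cell markers and the lowest in 2 of 3 tested endothelium markers. Medians of classes and lists are therefore given with and without C_liver replicate 3.

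No proteasome member was a DE gene (log2 fold change of 1 or more in size with an unadjusted P under 0.05, the study's criteria). By edgeR's quasi-likelihood test, 0 of 68 members and 358 of the 11521 tested genes (3.11%) met these criteria. DESeq2 called 521 of the 11521 tested genes and, again, 0 members. The nearest was LOC113639025, at a log2 fold change of -0.998, which met the criteria with upper quartile factors or without the filter on low values. At an unadjusted P under 0.05 alone, 2 members were lower in T_liver (2.94% of 68) and 0 were higher, against a background of 3.47% lower and 3.17% higher among all tested genes, so that these counts are near the background. No tested gene reached a Benjamini-Hochberg adjusted P of 0.05 with edgeR, where 765 had an unadjusted P under 0.05, and 38 genes did with DESeq2. None of those 38 was one of the 55 subunits and factors.

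What the members shared was the sign of a small difference. The log2 fold change was below 0 in 57 of 68 members (83.8%) and in 48 of the 55 subunits and factors (87.3%), against 50.4% of all tested genes, of which 49.6% were above 0. Its median was -0.25 over the 68 members and -0.28 over the 55, against -0.00 over all tested genes. This sign depended on 1 library. Without C_liver replicate 3, 26 of the 55 were lower and 29 higher in T_liver, and their median was 0.03. Without any other single library, 44 to 51 of the 55 were lower, with medians of -0.47 (without C_liver replicate 2) to -0.21 (without T_liver replicate 3). In bulk tissue, fewer cells of a type and less RNA per cell cannot be told apart.

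**Figure D1:**
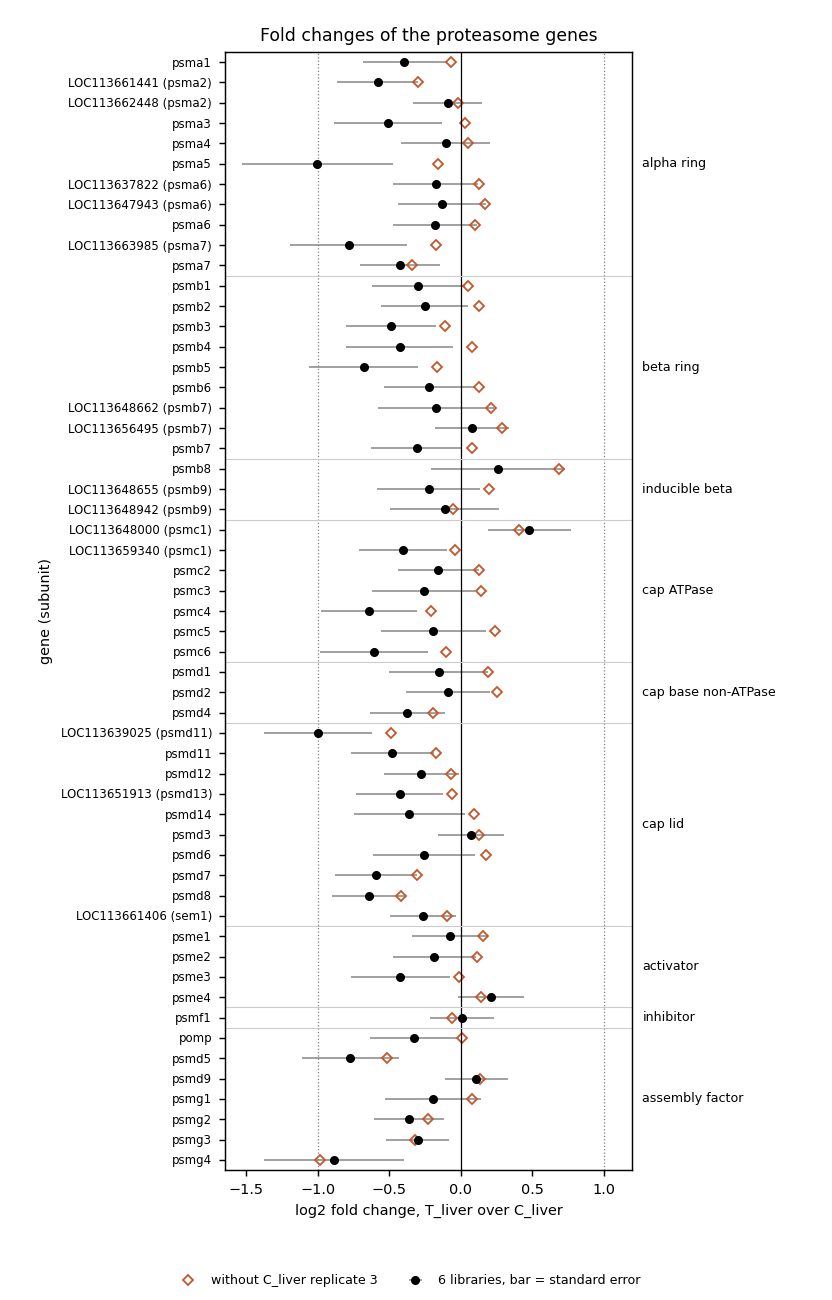
Log2 fold change of T_liver over C_liver (x axis, no unit) of the 55 tested subunits and factors, 1 per line and grouped by class, with all 6 libraries (black point, bar = standard error) and without C_liver replicate 3 (open diamond). With all libraries 48 points lie left of 0, and without C_liver replicate 3 this holds for 26 diamonds.

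Most subunits, but not all, had their highest level in the same library. The median over the 55 genes of log2 CPM minus the mean of the gene over the 6 libraries (CPM, counts relative to library size after TMM scaling) was -0.00, -0.11 and -0.28 in T_liver replicates 1, 2 and 3. It was -0.02, -0.24 and 0.70 in C_liver replicates 1, 2 and 3. Therefore the T_liver replicates overlapped C_liver replicates 1 and 2, and C_liver replicate 3 alone lay above them. The lowest library was more divided, T_liver replicate 3 in 29 of the 55 genes and C_liver replicate 2 in 17.

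C_liver replicate 3 had the highest level of the 6 libraries in 44 of the 55 subunits and factors (80.0%) and in 50 of 68 members (73.5%), against 25.2% of all tested genes. With total counts as the only scaling, it was highest in 39 of the 55 (70.9%), against 14.1% of all tested genes. The ratio of C_liver replicate 3 to the mean of C_liver replicates 1 and 2 had a median of 1.71 over the 55 genes (0.795 to 3.37), against 0.969 over all tested genes. Genes with their highest level in another library included psme4, psmf1, psmd9, psmg3, psmg4 and LOC113648000. The ratio exceeded 1.5 in 39 of the 55 (70.9%), compared with 18.4% of all tested genes. The median coefficient of variation of CPM was 15.6% in T_liver and 36% in C_liver for the 55 genes, and 24.2% in T_liver and 25.3% in C_liver for all tested genes. The red blood cell entries given above were highest in the same library, and their part in the result was not tested. In T_liver replicate 2, where red blood cell entries summed to 4284 FPKM, the median deviation of the 55 genes was -0.11. The exocrine pancreas sum of C_liver replicate 3 was near those of T_liver replicates 1 and 3, with clps at 93.85 CPM. Its cel and cela1, at 15.04 and 9.899 CPM, were below T_liver replicates 1 (86.02 and 33.95 CPM) and 3 (44.76 and 23.18 CPM). The part of the pancreas markers in the result was not tested either.

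**Figure D2:**
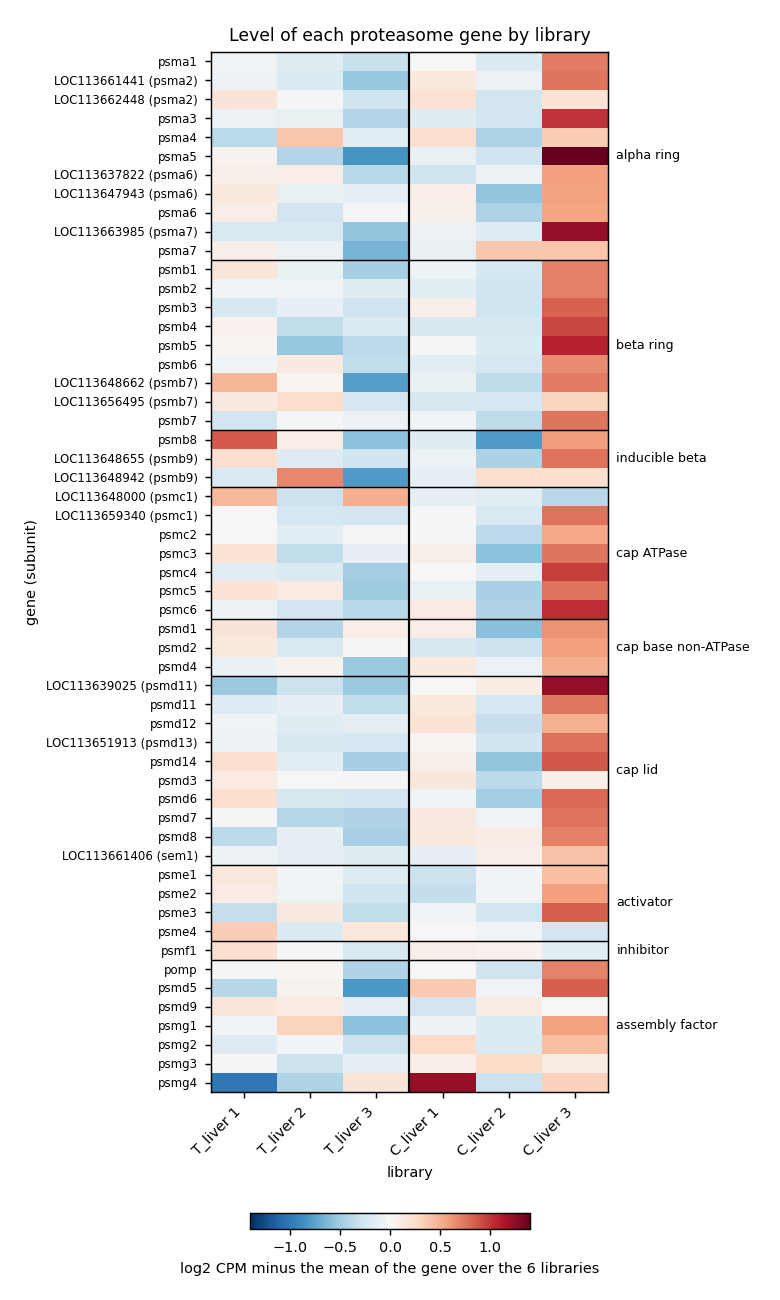
Each line is 1 of the 55 tested subunits and factors and each column 1 library. The colour gives log2 CPM minus the mean of the gene over the 6 libraries (red, above the mean; blue, below it). C_liver replicate 3 is the highest library in 44 of the 55 lines.

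The alpha ring had 11 tested entries for its 7 subunits, and in all 11 T_liver was lower, at a median log2 fold change of -0.39. Without C_liver replicate 3 the median was -0.02. None had an unadjusted P under 0.05 in edgeR's quasi-likelihood test or in DESeq2. The entry with the lowest log2 fold change was psma5, an alpha ring subunit, with 37.3, 27 and 20.3 CPM in T_liver and 33.5, 29.6 and 106.4 CPM in C_liver. Only C_liver replicate 3 was above all T_liver libraries, and the groups overlapped. Its log2 fold change was -1.0 ± 0.53 (SE, n = 3 libraries each; edgeR quasi-likelihood P = 0.0985, adjusted P = 0.676; exact 2-sided permutation p = 0.4) and -0.16 without C_liver replicate 3.

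The psma7-like entry LOC113663985 had 23.3, 23.6 and 18.7 CPM in T_liver and 25.6, 23.9 and 63.5 CPM in C_liver. Each T_liver library was below each C_liver library, closely so for C_liver replicate 2, and again C_liver replicate 3 was far above the rest. The log2 fold change was -0.78 ± 0.41 (SE, edgeR P = 0.0936, exact 2-sided permutation p = 0.1, the smallest that 3 against 3 libraries allow) and -0.17 without C_liver replicate 3. LOC113661441, 1 of 2 entries for psma2, had 30.0, 27.6 and 22.1 CPM in T_liver and 35.3, 30.2 and 53.7 CPM in C_liver, which do not overlap. Its other copy, LOC113662448, was at 34.4, 29.9 and 25 CPM in T_liver and 34.9, 25.4 and 34.7 CPM in C_liver, and had the alpha ring's highest log2 fold change, -0.09 ± 0.24. LOC113661441 (3680492 to 3683688) overlaps wdyhv1 (3683676 to 3686472, on the opposite strand) only at its end. Mean levels were 35.2 FPKM for LOC113661441 and 4.24 FPKM for wdyhv1. Whether the counting used strand is not given in the sources used here.

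In the beta ring, 8 of 9 tested entries were lower in T_liver and 1 was higher (median log2 fold change -0.29, or 0.08 without C_liver replicate 3). None had an unadjusted P under 0.05 in edgeR or DESeq2. C_liver replicate 3 was the highest library in each of the 9. Of the standard catalytic subunits, psmb5, which carries the chymotrypsin-like site, had the ring's lowest log2 fold change, with 32.4, 22.0 and 24.6 CPM in T_liver and 31.4, 27.9 and 67.2 CPM in C_liver. T_liver replicate 1 was above 2 of the C_liver libraries, and the log2 fold change was -0.68 ± 0.38 (SE, edgeR P = 0.115, exact permutation p = 0.3) and -0.17 without C_liver replicate 3.

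The caspase-like subunit psmb6 had 59.8, 67.3 and 48.7 CPM in T_liver and 55.7, 51.9 and 97.3 CPM in C_liver (log2 fold change -0.22 ± 0.31, SE, or 0.13 without C_liver replicate 3). The trypsin-like subunit psmb7 had 45.1, 53.0 and 50.9 CPM in T_liver and 52.2, 42.0 and 90.3 CPM in C_liver (log2 fold change -0.31 ± 0.32, SE, or 0.08 without C_liver replicate 3). In both genes every T_liver library lay below C_liver replicate 3, and T_liver overlapped C_liver replicates 1 and 2. The 1 entry above 0 was LOC113656495, described as psmb7-like, with 34.3, 37.3 and 26.6 CPM in T_liver and 26.9, 26.7 and 39.1 CPM in C_liver (log2 fold change 0.08 ± 0.26, SE, or 0.29 without C_liver replicate 3).

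Of the 3 tested inducible beta entries, 1 was higher and 2 were lower in T_liver, with a median of -0.11, or 0.20 without C_liver replicate 3, and none had an unadjusted P under 0.05 in edgeR or DESeq2. The entry psmb8, whose mammalian counterpart replaces psmb5 in the immunoproteasome, had 24.2, 14.2 and 8.96 CPM in T_liver and 11.9, 7.69 and 20.1 CPM in C_liver. T_liver replicate 1 was the highest library and C_liver replicate 2 the lowest, and the groups overlapped. The log2 fold change was 0.26 ± 0.47 (SE, edgeR P = 0.596, adjusted P = 0.895, exact permutation p = 0.7) with all libraries and 0.69 without C_liver replicate 3. It was -0.18 without T_liver replicate 1 and -0.015 without C_liver replicate 2, so that its sign depended on single libraries. In mammals psmb9 replaces psmb6. LOC113648655 (psmb9) had 10.5, 7.83 and 7.31 CPM in T_liver and 8.38, 6.55 and 15 CPM in C_liver (log2 fold change -0.22 ± 0.36, SE, or 0.20 without C_liver replicate 3). LOC113648942 (psmb9-a like) had 15, 27.7 and 10.1 CPM in T_liver and 15.9, 20.7 and 20.4 CPM in C_liver (log2 fold change -0.11 ± 0.38, SE). Its KEGG orthology entry is that of psmb6, a standard subunit, so its class and the ratios that use it rest on its description. Both psmb9 entries overlapped between the groups. The psmb11-like LOC113651508, whose mammalian counterpart is a thymus subunit, had counts in T_liver replicate 3 alone and was not tested, and psmb10 was not analysed here.

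The tested inducible beta entries lie close together, beside a psmb7-like entry that was classed with the standard beta ring. On scaffold NW_020847857.1, LOC113648655 (9720997 to 9723408), LOC113648942 (9724639 to 9728489), psmb8 (9730511 to 9733142) and the psmb7-like LOC113648662 (9735615 to 9738862) span 17866 bp. They are flanked by LOC113648838 and LOC113649020, both described as antigen peptide transporter 2-like, the pump that carries proteasome products into the endoplasmic reticulum. LOC113648662 had 16.6, 12.4 and 7.06 CPM in T_liver and 11.3, 9.43 and 19.9 CPM in C_liver (log2 fold change -0.17 ± 0.41, SE, or 0.21 without C_liver replicate 3). Like psmb8 and the median of the 55 subunits and factors, it was higher in T_liver replicate 1 than in T_liver replicate 3. Unlike psmb8, it was highest in C_liver replicate 3. The flanking LOC113649020 had a log2 fold change of -0.11 (edgeR adjusted P = 0.95), and LOC113648838 had a mean of 0.518 FPKM and was not tested.

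Per length, psmb8 was at 0.863, 0.747 and 0.420 of the psmb5 level in T_liver replicates 1, 2 and 3 (ratio of FPKM), and at 0.436, 0.318 and 0.345 in C_liver replicates 1, 2 and 3. The means were 0.677 ± 0.230 in T_liver and 0.366 ± 0.0621 in C_liver (SD, n = 3 each). T_liver replicate 3 lay below C_liver replicate 1, so the groups overlapped by this 1 pair. The psmb9 entries, set against psmb6, had nearly equal means in the groups. For LOC113648655 they were 0.1004 ± 0.0202 in T_liver and 0.09799 ± 0.0103 in C_liver (SD). For LOC113648942 they were 0.3409 ± 0.127 in T_liver and 0.3506 ± 0.113 in C_liver (SD). The 3 tested inducible entries and LOC113651508 together were at 0.366, 0.380 and 0.216 of the sum of psmb5, psmb6 and psmb7 in T_liver, and at 0.273, 0.318 and 0.224 in C_liver. Here the means of 0.321 ± 0.0906 in T_liver and 0.272 ± 0.0471 in C_liver (SD) differed by less than the spread within T_liver.

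**Figure D3:**
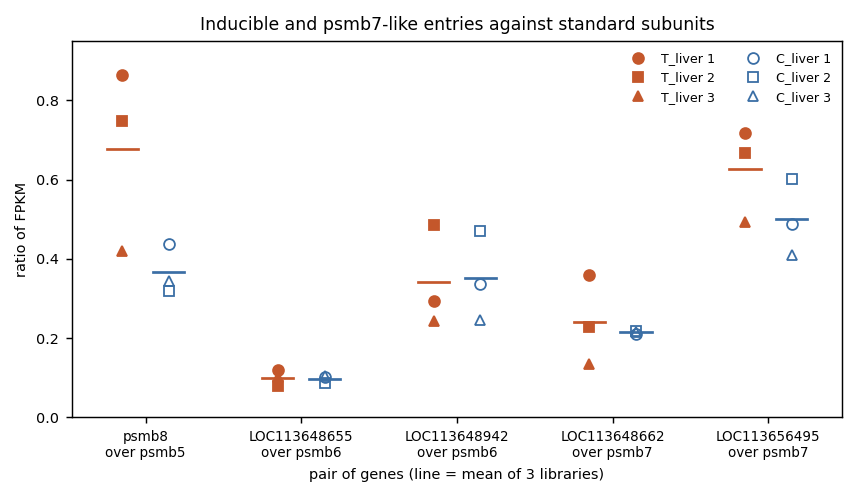
Ratio of FPKM (y axis, no unit) of each inducible or psmb7-like entry over the standard subunit it is set against, with T_liver libraries left (filled) and C_liver libraries right (open) in each pair and the group mean as a line. For psmb8 over psmb5 the means are 0.677 in T_liver and 0.366 in C_liver, with T_liver replicate 3 below C_liver replicate 1. For LOC113648655 over psmb6 they are 0.1004 in T_liver and 0.09799 in C_liver. For LOC113648942 over psmb6 they are 0.3409 in T_liver and 0.3506 in C_liver.

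In the cap, 18 of 20 tested entries were lower in T_liver (median log2 fold change -0.32, or -0.05 without C_liver replicate 3). Both members with an unadjusted P under 0.05 belong to the lid, the part of the cap that removes ubiquitin. The psmd11-like entry LOC113639025 lies 4281 bp from psmd11, a lid subunit that clamps cap and core, on scaffold NW_020848306.1 (2656267 to 2680065). It had 5.10, 5.94 and 5.10 CPM in T_liver and 7.27, 7.86 and 17.1 CPM in C_liver. The groups did not overlap, and C_liver replicate 3 was again the highest. The log2 fold change was -0.998 ± 0.38 (SE, edgeR P = 0.0314, adjusted P = 0.676, exact permutation p = 0.1), just short of the size that makes a DE gene, and -0.48 without C_liver replicate 3. Its level per length was 1.90 FPKM, against 11.0 FPKM for psmd11, so that it made up 12.3 ± 0.666% of the summed psmd11 level in T_liver and 16.3 ± 3.08% in C_liver (SD). Such near copies can share reads, and how these were counted is not given in the sources used here.

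The lid subunit psmd8 had 28.5, 34.1 and 26.9 CPM in T_liver and 40.4, 39.5 and 60.1 CPM in C_liver. All T_liver libraries lay below all C_liver libraries, and C_liver replicate 3 was again the highest. The log2 fold change was -0.64 ± 0.26 (SE, edgeR P = 0.0382, adjusted P = 0.676, exact permutation p = 0.1) and -0.42 without C_liver replicate 3. Neither psmd8 nor LOC113639025 kept an unadjusted P under 0.05 when C_liver replicate 3, T_liver replicate 1 or T_liver replicate 3 was left out. Without C_liver replicate 2, 10 members were lower with an unadjusted P under 0.05, among them psma5, psmc4, psmc6, psmd7 and psmg4, which is 14.7% of 68 against 5.1% of all tested genes at that setting. There 1 member, LOC113650794, was higher with an unadjusted P under 0.05.

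Of the 10 lid entries 9 were lower, with a median of -0.39 (-0.08 without C_liver replicate 3). The exception was psmd3, a lid subunit, with 59.2, 54.7 and 55.4 CPM in T_liver and 61.1, 42.4 and 57.7 CPM in C_liver (log2 fold change 0.07 ± 0.23, SE, or 0.13 without C_liver replicate 3). The deubiquitinase psmd14 had 36.6, 28.0 and 22.6 CPM in T_liver and 33.1, 21.4 and 57.3 CPM in C_liver (log2 fold change -0.36 ± 0.39, SE, or 0.10 without C_liver replicate 3).

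The ATPases unfold the substrate. Of their 7 entries 6 were lower in T_liver, with a median of -0.26 (0.13 without C_liver replicate 3), and none had an unadjusted P under 0.05 in edgeR or DESeq2. The lowest was psmc4, with 27.7, 26.8 and 21.9 CPM in T_liver and 30.9, 28.1 and 60.2 CPM in C_liver, which do not overlap (log2 fold change -0.64 ± 0.34, SE; edgeR P = 0.096, exact permutation p = 0.1), and the log2 fold change was -0.21 without C_liver replicate 3. The highest was LOC113648000, the smaller of 2 psmc1 entries, with 11.2, 6.59 and 11.5 CPM in T_liver and 7.42, 7.34 and 6.21 CPM in C_liver (log2 fold change 0.48 ± 0.29, SE). Here T_liver replicate 2 lay within the C_liver range. The larger psmc1 entry, LOC113659340, had a log2 fold change of -0.40. The 3 tested non-ATPase subunits of the cap base were all lower, with a median of -0.15, or 0.19 without C_liver replicate 3. They had log2 fold changes of -0.37 (psmd4, a ubiquitin receptor), -0.15 (psmd1) and -0.09 (psmd2), where psmd1 and psmd2 are the large scaffold subunits.

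Groups that did not overlap were counted over all 68 tested members. In 7 of 68 (10.3%) all T_liver libraries were below all C_liver libraries, against 7.1% of all tested genes, and in 0 they were above, against 5.96%. The 7 were LOC113661441 (psma2), LOC113663985 (psma7), psmc4, LOC113639025 (psmd11), psmd8, psmg3 and mesd. This share is near the background.

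The activators bind the ends of the core. Of 4 tested, 3 were lower and 1 was higher in T_liver, with a median of -0.13, or 0.13 without C_liver replicate 3, and none had an unadjusted P under 0.05 in edgeR or DESeq2. The psme1 and psme2 subunits, which form 1 ring and are interferon-induced in mammals, had close levels of 48.7 and 44 FPKM. For psme1, T_liver had 57.6, 50.5 and 46.0 CPM and C_liver 42.2, 50.5 and 69.6 CPM (log2 fold change -0.08 ± 0.26, SE, or 0.15 without C_liver replicate 3). For psme2, T_liver had 48.0, 42.6 and 36.5 CPM and C_liver 35.2, 43.1 and 66.0 CPM (log2 fold change -0.18 ± 0.29, SE, or 0.12 without C_liver replicate 3). In both, the T_liver libraries fell within the C_liver range. The nuclear activator psme3 had 7.87, 10.8 and 7.78 CPM in T_liver and 9.62, 8.22 and 17.6 CPM in C_liver (log2 fold change -0.42 ± 0.34, SE, or -0.01 without C_liver replicate 3). The large single-chain activator psme4 was the 1 activator above 0, with 58.9, 40.4 and 51.1 CPM in T_liver and 46.3, 44.8 and 38.8 CPM in C_liver (log2 fold change 0.21 ± 0.23, SE), and C_liver replicate 3 was its lowest library. The inhibitor psmf1, which binds the core particle in mammals, was at 26.7, 22.3 and 19.6 CPM in T_liver and 24.1, 23.7 and 20.4 CPM in C_liver (log2 fold change 0.01 ± 0.22, SE, or -0.06 without C_liver replicate 3).

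Assembly factors are chaperones that leave the finished particle. Of 7 tested, 6 were lower in T_liver, with a median of -0.32, and -0.23 without C_liver replicate 3. C_liver replicate 3 was the highest library in 4 of the 7. The lowest was psmg4, a chaperone of alpha ring assembly, with 2.05, 3.06 and 4.65 CPM in T_liver and 9.58, 3.34 and 5.14 CPM in C_liver. Here C_liver replicate 1 was the high library, and the log2 fold change was -0.89 ± 0.49 (SE, edgeR P = 0.111, exact permutation p = 0.2) with all libraries and -0.98 without C_liver replicate 3. A base chaperone, psmd5, had 5.54, 7.52 and 4.16 CPM in T_liver and 9.39, 7.01 and 13.0 CPM in C_liver (log2 fold change -0.77 ± 0.34, SE; edgeR P = 0.0558, exact permutation p = 0.2), or -0.51 without C_liver replicate 3. The alpha ring chaperone psmg3 had 8.45, 6.94 and 7.76 CPM in T_liver and 9.07, 10.2 and 9.19 CPM in C_liver (log2 fold change -0.30, edgeR P = 0.214, exact permutation p = 0.1), which do not overlap although C_liver replicate 3 was not high. The highest was psmd9, a chaperone of the base, at 0.11 ± 0.22 (log2 fold change, SE).

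Levels per length were compared between subunits by summing the FPKM of all entries of a subunit. The 14 standard core subunits had a median of 45.4 FPKM and covered a 3.48-fold range, with psmb5 the lowest (26.8 FPKM) and psmb7, the sum of 3 entries, the highest (93.4 FPKM). The entry named psmb7 had 53.0 FPKM by itself, so this rank and range rest on the summing. Of the other 2 entries, LOC113648662 (11.7 FPKM) lies beside the inducible entries, and its class rests on its annotation. The 7 alpha subunits covered a 2.4-fold range, psma5 at 29.7 FPKM and psma6 at 71.1 FPKM. Cap subunits were lower, with a median of 22.7 FPKM over 18 subunits. The 6 ATPases ranged from 13.3 FPKM (psmc3) to 38.1 FPKM (psmc1). The member with the highest level was sem1 (LOC113661406), a small lid protein, at 117.8 FPKM, followed by psmb4 at 68.3 FPKM and psmb6 at 65.2 FPKM. For sem1 the libraries had 57.5, 55.2 and 53.7 CPM in T_liver and 55.7, 63.7 and 80.3 CPM in C_liver (log2 fold change -0.26 ± 0.23, SE, or -0.10 without C_liver replicate 3). For psmb4 they had 66.7, 50.4 and 55.5 CPM in T_liver and 54.7, 54.8 and 122.6 CPM in C_liver (log2 fold change -0.43 ± 0.37, SE, or 0.08 without C_liver replicate 3).

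**Figure D4:**
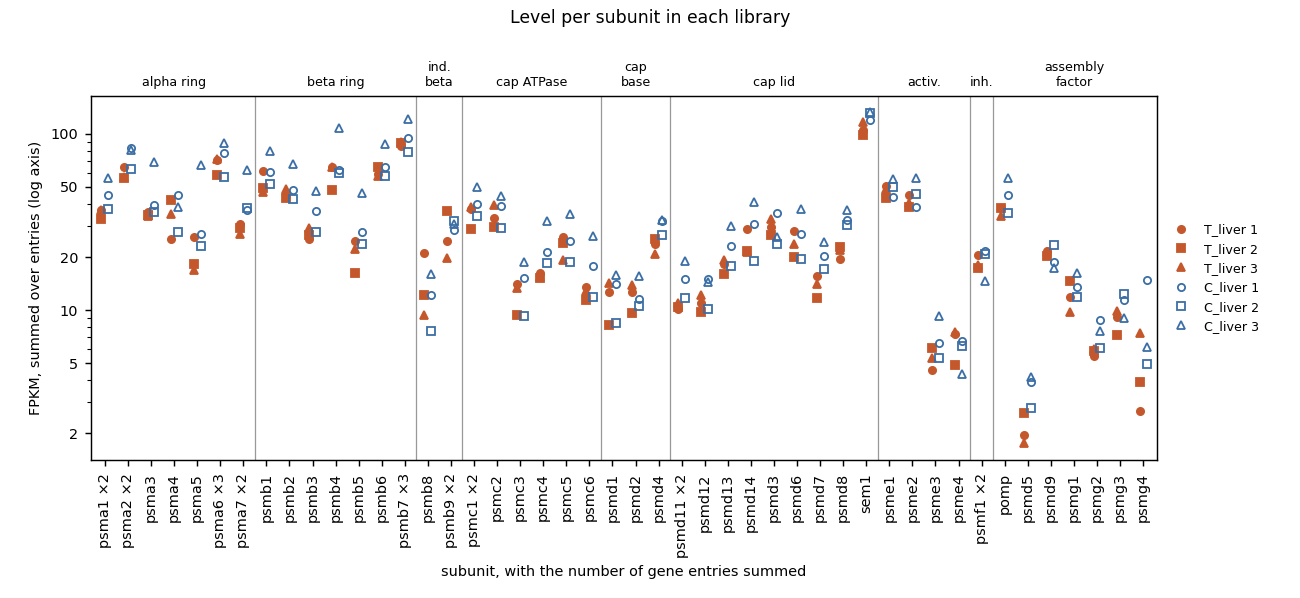
FPKM (y axis, log scale) of each subunit, summed over its entries (their number is given after the name where above 1), in each T_liver library (filled) and, to the right, each C_liver library (open). The core subunits lie between 26.8 FPKM (psmb5) and 93.4 FPKM (psmb7) on average over the 6 libraries, and sem1 has the highest mean of the subunits drawn.

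The summed level of core over cap subunits was 1.54, 1.65 and 1.45 in T_liver and 1.48, 1.48 and 1.69 in C_liver (ratio of FPKM). The highest ratios were those of C_liver replicate 3 and T_liver replicate 2, and the groups overlapped. All 58 subunits and factors took 0.165, 0.147 and 0.161% of the counts in T_liver and 0.186, 0.156 and 0.231% in C_liver.

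Several subunits had more than 1 expressed entry. For psma2 the 2 entries had nearly equal levels, with LOC113661441 at 47.6 ± 0.717% of their summed FPKM in T_liver and 55.6 ± 5.25% in C_liver (SD, n = 3 each). For psma6 the 3 entries took 46.0% (psma6), 33.4% (LOC113647943) and 20.6% (LOC113637822) of the sum over all libraries. For psma7 the entry with the name psma7 was the smaller, at 29.8%, and LOC113663985 held 70.2%. In psmc1, LOC113648000 took 18.4 ± 4.26% in T_liver and 11.9 ± 4.25% in C_liver (SD).

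The 16 members named or described as other proteins are a mixed set. Of 13 tested, 9 were lower and 4 higher in T_liver, with a median of -0.04, or 0.07 without C_liver replicate 3, and no unadjusted P under 0.05 in edgeR or DESeq2, and C_liver replicate 3 was the highest library in 6. The lowest log2 fold change was that of mesd, a chaperone of lipoprotein receptors, with 20.4, 21.6 and 14.2 CPM in T_liver and 22.6, 23.9 and 38.0 CPM in C_liver (-0.59 ± 0.30, SE, or -0.31 without C_liver replicate 3). The highest was that of LOC113650794, described as an AFG3-like mitochondrial protease, with 18.7, 11.7 and 14.7 CPM in T_liver and 8.27, 15.4 and 5.14 CPM in C_liver (0.65 ± 0.42, SE, or 0.35 without C_liver replicate 3). The 3 signalosome subunits, which resemble the cap lid, were near 0, at -0.02 (cops2), 0.18 (cops3) and -0.04 (cops5). Among the tested members with the lowest levels were ttc39b (1.03 FPKM) and mks1 (1.47 FPKM), with log2 fold changes of 0.08 and -0.25.

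Genes that feed or control the proteasome were counted in the same way. Of 19 tested genes of ubiquitin and its activation, 10 were higher and 9 lower in T_liver (median log2 fold change 0.08, or 0.13 without C_liver replicate 3 and -0.13 without T_liver replicate 2). Of 16 deubiquitinases, shuttles and cofactors, 8 were higher and 8 lower (median -0.00, or 0.16 without C_liver replicate 3). Of 13 regulators and chaperones, 7 were higher and 6 lower (median 0.07, or -0.11 without C_liver replicate 3 and -0.10 without T_liver replicate 1). No gene of these lists was a DE gene by edgeR or DESeq2, while 2 had an unadjusted P under 0.05 with either tool, both of the ubiquitin list. Among all tested genes, 6.64% had an unadjusted P under 0.05 by edgeR, so that these 2 are no more than the background.

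Of those 2, ube2l3, a ubiquitin-conjugating enzyme, had 15.4, 14.8 and 14.7 CPM in T_liver and 27.3, 19.2 and 35.1 CPM in C_liver. The groups did not overlap, and the log2 fold change was -0.86 ± 0.27 (SE, edgeR adjusted P = 0.676) and -0.63 without C_liver replicate 3. The ubiquitin ligase ubr4 had 134.0, 116.0 and 221.7 CPM in T_liver and 104.7, 86.4 and 78 CPM in C_liver (log2 fold change 0.81 ± 0.32, SE; edgeR adjusted P = 0.676), so that T_liver was higher in every library. On the proteasome itself, the deubiquitinase usp14 had a log2 fold change of -0.49 ± 0.25 and the adaptor ecpas one of 0.41 ± 0.27 (SE). Among the regulators, the lowest P values were those of the chaperone dnajb1 (-0.45 ± 0.25) and the transcription factor foxo3 (-0.47 ± 0.32, log2 fold change and SE).

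**Figure D5:**
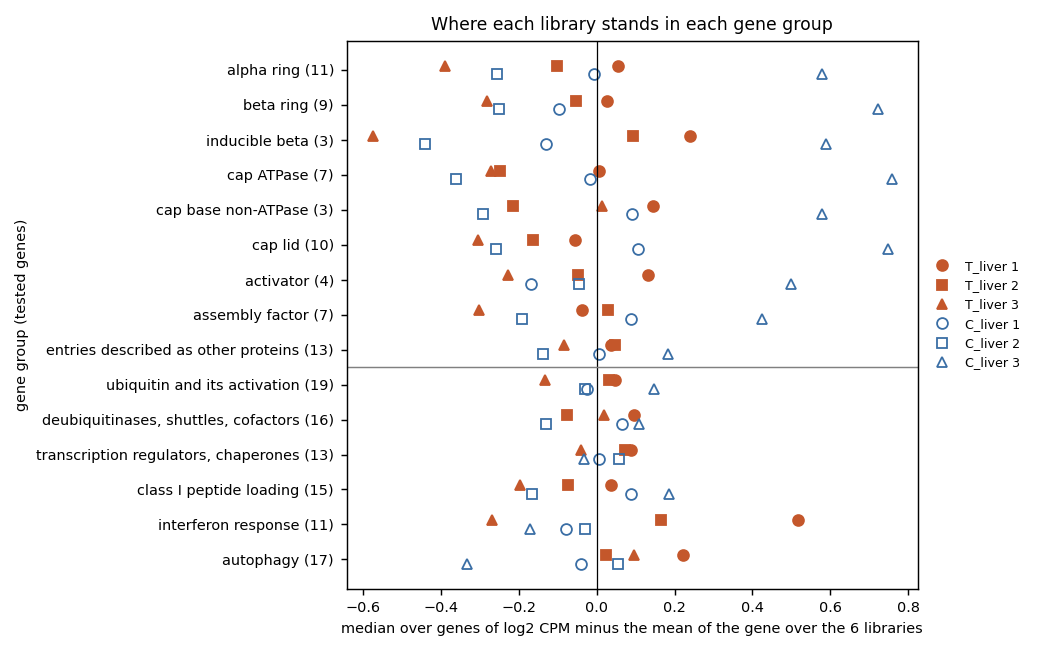
Median over the tested genes of each group (number in brackets) of log2 CPM minus the mean of the gene over the 6 libraries, for T_liver libraries (filled) and C_liver libraries (open). Proteasome classes stand above the horizontal line and other lists below it. C_liver replicate 3 lies between 0.43 and 0.76 in the classes of subunits and factors shown, at 0.18 in the entries described as other proteins and between -0.33 and 0.19 in the lists below the line.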

How the data were processed

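Total RNA of livers was made into 6 poly(A) libraries, 3 of T_liver (4 g/kg) and 3 of C_liver (0 g/kg), at 8 weeks of feeding. The authors aligned filtered reads with HISAT to the T. fulvidraco genome. They deposited, per gene and library, a count (not normalized) and the FPKM value, with 0.0001 for genes without a count. The submitters' processing notes name HISAT2 2.0, StringTie 1.3.0, Bowtie 0.12.2 and the mouse build mm8, without their roles. Of the genome build, the counting tool, its use of strand and its handling of multi-mapped reads, none is given in the sources used here. Positions are as deposited. A difference in these steps could move the counts of near-identical or overlapping entries.

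Genes averaging 1 FPKM or more were tested on counts with TMM scaling by edgeR's quasi-likelihood test (edgeR 4.0.16, R 4.3.3), with all 6 libraries, no covariate and Benjamini-Hochberg adjustment over 11521 genes. Fold changes are T_liver over C_liver, and standard errors were derived from the F statistics. CPM values are counts relative to library size after TMM scaling. For single genes an exact permutation test (2-sided) of log2 CPM was added. Alternatives were DESeq2 1.42.0, limma 3.58.1 on log2(FPKM + 1) and log2(FPKM + 0.1), other scalings and filters, a replicate block and leaving out each library. The test was tested on simulated data. Named genes are the inducible subunits, activators, inhibitor, psmb5, psmb6 and psmb7, members with an unadjusted P under 0.05, the highest and lowest log2 fold change of each class, the 3 highest and lowest mean levels, and of each partner list the DE genes, otherwise the 2 lowest P values. 1 gene that this rule names is not reported here. Others were named after their values were seen. The members and lists were chosen with earlier results of these data known. Classes follow the gene name, the deposited description or, for LOC113661441, the KEGG orthology entry. Promoter motifs were not searched.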

Additional observations from a re-analysis of the deposited data

How the results depend on the processing

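Among all tested genes the number of DE genes, 358, was 774 without a filter on low values, 175 with a minimum mean FPKM of 5 and 190 with limma on log2(FPKM + 1). With DESeq2 it was 521. Leaving out 1 library gave 248 (without C_liver replicate 3) to 643 (without T_liver replicate 2), with 628 without C_liver replicate 2. Of the proteasome members, 0 were DE genes. The count was 1 with upper quartile factors and 1 without the filter, LOC113639025 in both, and 0 to 5 when 1 library was left out. The 2 members lower at an unadjusted P under 0.05 were 1 with a minimum mean FPKM of 5 and 1 among members found by gene name alone. They were 4 with limma at a pseudocount of 1, 4 with limma at a pseudocount of 0.1, and 0 to 10 when 1 library was left out. With limma this was 5.88% of members at each pseudocount, against 3.68% (1) and 3.66% (0.1) of all tested genes. With a minimum mean FPKM of 5 it was 1.67% against 3.6%. Leaving out 1 library gave 0 to 14.7% of members, against 1.62% to 5.1% of all tested genes. The 0 members higher at that P were 0 to 1. The 1 (1.47%) arose without T_liver replicate 2 and without C_liver replicate 2, against 5.41% and 3.83% of all tested genes. The cause of these changes was not tested. Replicate numbers did not pair the libraries: the correlations of same-numbered deviations were -0.09, 0.04 and -0.13. With the replicate number as a block, 0 members had an unadjusted P under 0.05, and the median over the 55 subunits and factors was -0.24. The median log2 fold change of the members was -0.40 to 0.04 when 1 library was left out, being above 0 without C_liver replicate 3 alone, and lay between -0.31 and -0.19 under the other settings. The log2 ratio of inducible over standard catalytic subunits, T_liver over C_liver, was 0.24, and 0.10 to 0.46 when 1 library was left out. Over 1012 pairs of member and setting, 986 kept their side of the threshold, 9 lost it, 17 gained it, and no log2 fold change that had passed changed sign. Only 2 members, LOC113639025 and psmd8, had passed with the main settings. Most of the 986 pairs are therefore members that passed at neither setting, and the 9 losses and the unchanged signs concern those 2 members alone. The common biological coefficient of variation was 0.426 and the standard errors of the members were 0.22 to 0.53, so that a log2 fold change as small as the median of the members was not detectable.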

Other observations

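Lists that share functions with the proteasome, but are not part of it, were examined as well. Of 11 tested interferon response genes, 10 were higher and 1 lower in T_liver (median log2 fold change 0.19, and 0.25 without C_liver replicate 3), against 49.6% higher among all tested genes. The median was 0.07 without T_liver replicate 1, which was the highest library in 8 of the 11. The gene with the lowest P was trim25, a ubiquitin ligase of antiviral signalling, with 66.3, 42.2 and 51.7 CPM in T_liver and 42.1, 23.6 and 16.2 CPM in C_liver. T_liver was higher in each library (log2 fold change 0.97 ± 0.38, SE; edgeR quasi-likelihood adjusted P = 0.676). Next was irf2, a transcription factor, at 0.44 ± 0.27. C_liver replicate 3 was the highest library in 0 of the 11 genes. In this list T_liver replicate 1, with a median deviation of 0.52, was the highest library. Of the tested inducible beta entries this held for psmb8 only. LOC113648942 was highest in T_liver replicate 2 and LOC113648655 in C_liver replicate 3.

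Of 17 tested autophagy genes, which serve the other main route of protein removal, 14 were higher and 3 lower in T_liver, with a median of 0.32, and 0.19 without C_liver replicate 3. The start factor atg13 had 111.2, 56.4 and 60.5 CPM in T_liver and 37.0, 48.0 and 49.0 CPM in C_liver (log2 fold change 0.77 ± 0.33, SE; edgeR adjusted P = 0.676), which do not overlap. The kinase ulk1 had 25.3, 27.2 and 53.7 CPM in T_liver and 17.1, 26.1 and 6.29 CPM in C_liver (log2 fold change 1.10 ± 0.54, SE; edgeR adjusted P = 0.676), and its log2 fold change was 0.73 without C_liver replicate 3. C_liver replicate 3 was the lowest library in 11 of the 17, against 26.8% of all tested genes, with a median deviation of -0.33, and the highest in 1.

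Of 15 tested genes of class I peptide loading, 7 were higher and 8 lower (median -0.08, or 0.06 without C_liver replicate 3). The peptidase erap2 had 17.9, 16.5 and 12.6 CPM in T_liver and 19.2, 19.9 and 23.5 CPM in C_liver (log2 fold change -0.42 ± 0.23, SE), and the chaperone canx had a log2 fold change of -0.69 ± 0.40, or -0.13 without C_liver replicate 3. By edgeR, 2 genes of these 3 lists had an unadjusted P under 0.05, against 6.64% of all tested genes. No gene of these 3 lists was a DE gene by edgeR, whereas DESeq2 called 1, ulk1. None had an adjusted P under 0.05 with either tool.

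Proteasome-related entries that the rule did not reach had small differences too. The psmd10-like LOC113635671 had a log2 fold change of -0.53 ± 0.35, and the entries LOC113641818 and LOC113658198, described as the ubiquitin receptor ADRM1, had -0.16 ± 0.28 and -0.24 ± 0.22 (SE). In the other direction, ecpas had a log2 fold change of 0.41 ± 0.27 (SE), or 0.25 without C_liver replicate 3. For the LOC entries, values without C_liver replicate 3 are not reported here.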
